A study of Arabidopsis thaliana with 3 samples.

Results

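The 6 germin-like genes AT5G39110, AT5G39120, AT5G39130, AT5G39150, AT5G39160 and AT5G39180 lie one after another on chromosome 5 of Arabidopsis thaliana, between 15657697 and 15684471 on TAIR10, and were examined among 27444 nuclear protein-coding genes for the histone demethylase LDL1. The members were given by locus and had been chosen by the LDL1:GFP regions that lie on them. Their cover by these regions is therefore a description and was not tested. The plants were Col-0 seedlings grown for 14 days in long days and carried an LDL1:GFP fusion driven by the LDL1 promoter, in the ChIP and the input group alike. An anti-GFP antibody was used to precipitate chromatin for 2 libraries, each made from DNA pooled from several precipitations, and 1 input library came from the same line. A precipitation from plants without the fusion, or one without antibody, was not analysed here. The values below come from a single list of ChIP regions (start and end only, no score or read count) and a list of input intervals, so they carry no replicate error and the depth of the libraries is unknown.

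Germins and germin-like proteins are secreted proteins of the cupin superfamily that sit in the plant cell wall. They bind a metal ion in a barrel-shaped fold, and particular members have been described as oxalate oxidases or superoxide dismutases. In cereals and other plants the family is known for roles in early development and in defence against pathogens, and its genes often occur as tandem arrays. LDL1 belongs to the LSD1 family of enzymes, which remove methyl groups from lysine 4 of histone H3. The gene table used here gives the 6 loci no symbol, and none of them carries the word germin there. It does name their neighbours GLP6 (AT5G39100, germin-like protein 6) and GER2 (AT5G39190, germin-like protein 2).

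All 6 members were overlapped by exactly 1 LDL1:GFP region each, against 7.68% of nuclear protein-coding genes overlapped by at least 1 bp and 7.04% of those outside the gene-poor bins (the 22 bins of 1 Mb, mostly around centromeres, with fewer than 150 protein-coding genes). The rule used this measure, so nothing is read from the difference. Of the 6005 bp in the 6 gene bodies, 3383 bp (56.3%) lay under regions, whereas 1.07% of all protein-coding bases did. Cover differed widely within the cluster. AT5G39180 was covered over 93.8% of its body and AT5G39150 over 86.3%. AT5G39160 was covered over 57.1%. The other members, all at the lower end of the cluster, stayed below 50%: AT5G39120 at 42.1%, AT5G39130 at 27.7% and AT5G39110 at 26.9%. The 3 upper members thus passed 50% of the body and the 3 lower ones did not, while 0.711% of all protein-coding genes passed it. Among the 2108 protein-coding genes overlapped by a region the median cover was 10.3%, with an upper quartile of 20.0%. Even the least covered member lay above that quartile, but genes of all lengths were compared and the members are only 936 to 1137 bp long. The region on that member, AT5G39110, was 252 bp wide and narrower than 70.2% of all regions, so nothing is read from its place above the quartile.

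**Figure D1:**
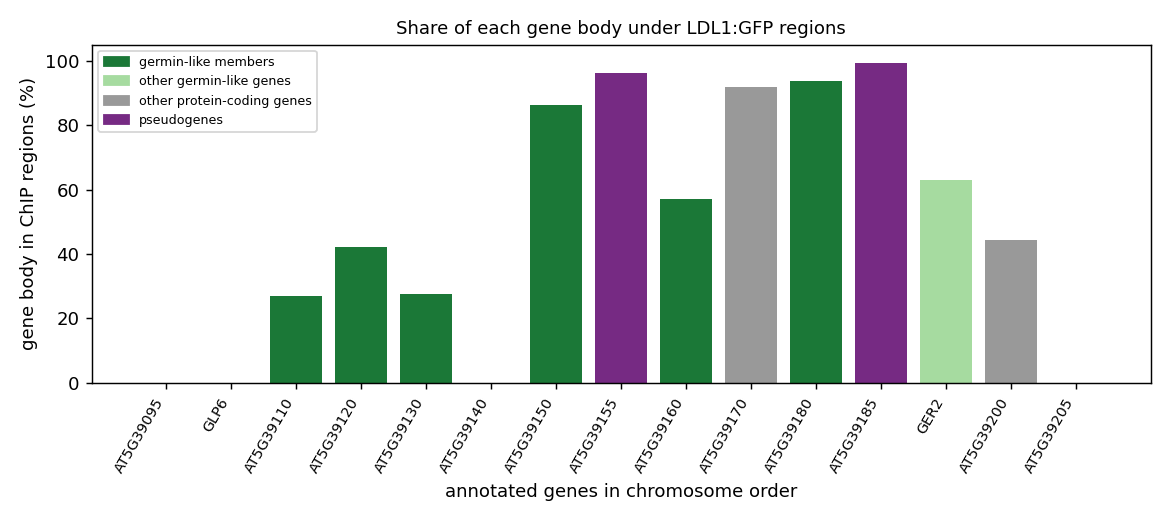
Share of each annotated gene body under LDL1:GFP regions (vertical axis, %), for the genes of the cluster in chromosome order (horizontal axis). Bars are coloured by kind of gene; members range from 26.9% to 93.8%, and AT5G39095, GLP6, AT5G39140 and AT5G39205 stand at 0.

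**Figure D2:**
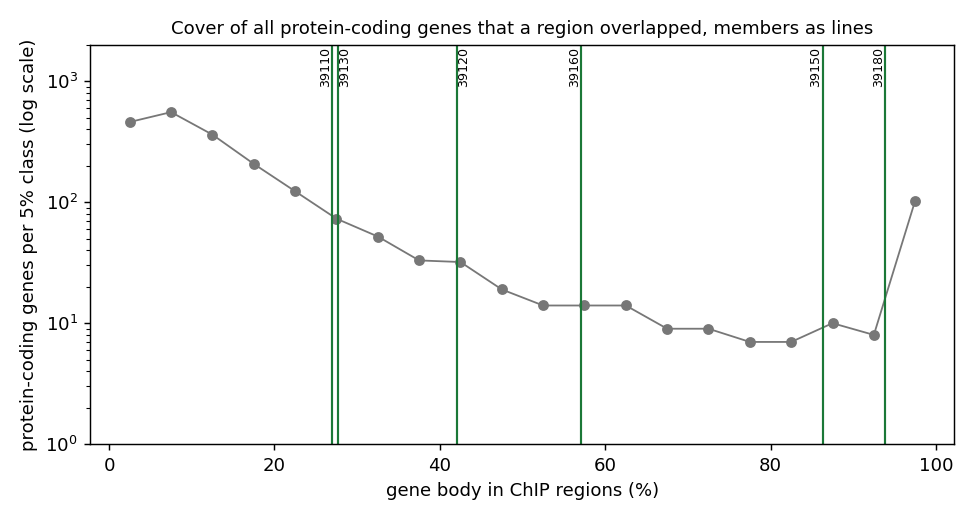
Number of protein-coding genes (vertical axis, log scale) by share of the body under regions (horizontal axis, %, in classes of 5%), for the 2108 genes that a region overlapped. The 6 members are drawn as vertical lines, all above the upper quartile of 20.0%, and genes were not matched for length.

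The position of the region within the gene was similar in the members with little cover. In AT5G39110 (15657697 to 15658632, 936 bp) the region ran from 15658049 to 15658300, beginning 352 bp above the lower end of the gene and stopping 332 bp short of the upper end. Its midpoint lay at 51.1% of the body. In AT5G39130 (15665502 to 15666472, 971 bp) the region of 269 bp left 344 bp free on the lower side and 358 bp on the upper side, with its midpoint at 49.3%. AT5G39120 (15662582 to 15663527, 946 bp) carried a region of 398 bp that left 213 bp and 335 bp free, with its midpoint at 43.6%. These 3 regions were thus short blocks in the middle of the gene, touching neither end. Gene strand was not used here, so lower and upper refer to chromosome coordinates and gene start and stop are not told apart.

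In the upper members the regions reached closer to the ends. The region on AT5G39150 (15669898 to 15670904, 1007 bp) was 869 bp wide, starting 27 bp inside the lower end and stopping 111 bp before the upper end. On AT5G39180 (15683464 to 15684471, 1008 bp) a region of 970 bp, from 15683526 to 15684495, began 62 bp inside the lower end and passed the upper end by 24 bp. AT5G39160 (15679005 to 15680141, 1137 bp) was asymmetric: its region of 649 bp began 97 bp from the lower end but left 391 bp free at the upper end, with the midpoint at 37.1% of the body. In 5 of the 6 members the region lay wholly inside the gene, AT5G39180 being the exception. The same held for 56.5% of the 1867 protein-coding genes overlapped by exactly 1 region. The genome's median region is 300 bp wide, and the regions on AT5G39110 and AT5G39130 fell below it. Those on AT5G39180, AT5G39150 and AT5G39160 were exceeded in width by 5.72%, 6.95% and 10.98% of the 5928 regions.

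**Figure D3:**
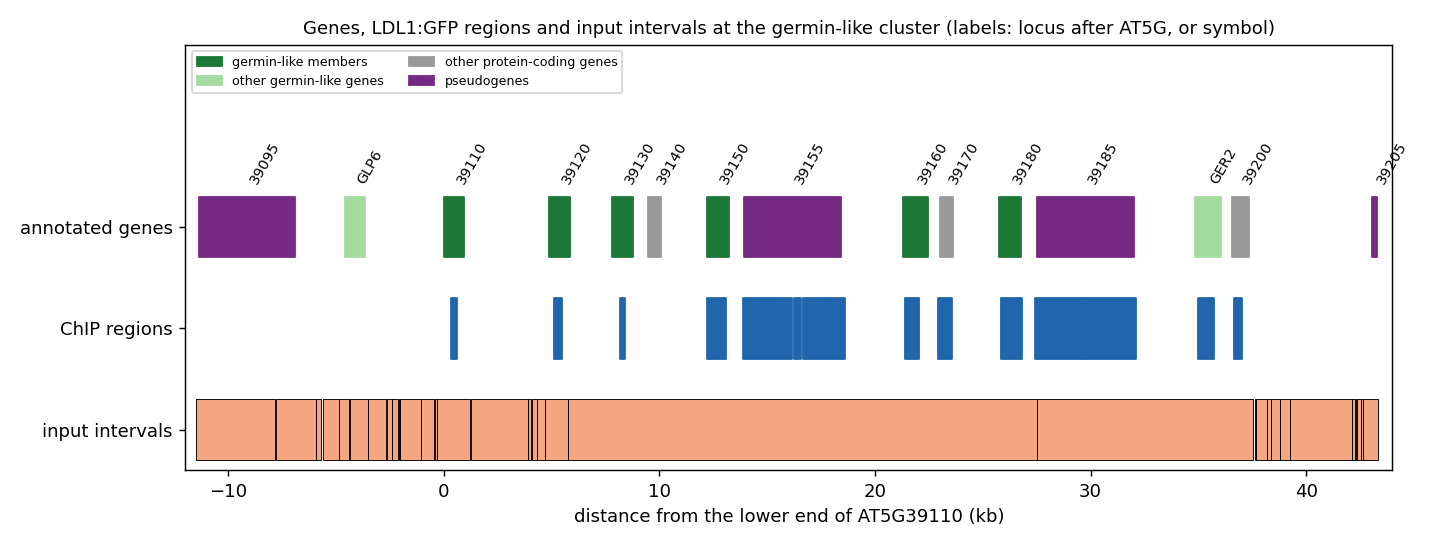
Map of the cluster drawn to scale, with distance from the lower end of AT5G39110 in kb on the horizontal axis. The rows show annotated genes coloured by kind, LDL1:GFP regions in blue, and input intervals in orange with black edges; every region stands on a gene, and the input is divided 1 time between the upper part of AT5G39120 and the end of AT5G39200.

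Between annotated genes, pseudogenes included, the regions took up a small share of the bases, near that of the whole genome. From AT5G39110 to AT5G39180 there are 8 spaces between consecutive annotated genes, 15093 bp in all, and 375 bp of them (2.48%) lay under a region. Regions covered 2.43% of the genome, and on average 0.882% of a window of 10 kb outside the gene-poor bins. Counted from member to member, whatever lies between, the share was 56.6% from AT5G39150 to AT5G39160 and 20.1% from AT5G39160 to AT5G39180. Having no region is common: 80.5% of windows of 10 kb outside the gene-poor bins held none. The share of all spaces between genes without a region was not worked out, so nothing is read from the following count. In 5 of the 8 spaces no region entered at all. These include the 3949 bp between AT5G39110 and AT5G39120 and the 1974 bp between AT5G39120 and AT5G39130. The other 3 held only the overhang of a region that sits on a gene: 86 bp between AT5G39150 and the pseudogene AT5G39155, 168 bp between AT5G39155 and AT5G39160, and 121 bp between AT5G39160 and AT5G39170. All 14 regions from AT5G39110 to AT5G39200 overlapped an annotated gene. Of the regions outside the gene-poor bins, 83.9% did so. The nearest regions beyond these 14 were distant, 46.6 kb below (15611193 to 15611424) and 154 kb above (15848689 to 15848952).

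Other genes in the stretch were covered as heavily as the members. The pseudogene AT5G39155 (15671637 to 15676129, 4493 bp) lies between AT5G39150 and AT5G39160 and was covered over 96.3% by 3 regions of 2301, 343 and 1937 bp, which were 73 and 93 bp apart. The first annotated gene above the members, the pseudogene AT5G39185 (15685228 to 15689705, 4478 bp), was covered over 99.4% by a pair of regions of 2296 and 2382 bp, separated by 25 bp. A cover of 80% or more was found in 2.79% of the 4843 annotated pseudogenes. AT5G39170, a short protein-coding gene of 595 bp between AT5G39160 and AT5G39180, was covered over 91.9%. AT5G39140, of 589 bp between AT5G39130 and AT5G39150, held no region. A pseudogene of similar length on the lower side, AT5G39095 (4434 bp; singled out after its value was seen), held none either.

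The order of genes repeats along the cluster, and the regions largely repeated with it, with exceptions at the second gene. AT5G39130, AT5G39140, AT5G39150 and the pseudogene AT5G39155 are followed by AT5G39160, AT5G39170, AT5G39180 and the pseudogene AT5G39185 at a distance of 13503, 13558, 13566 and 13591 bp, measured from lower end to lower end. GER2 and AT5G39200 stand a further 13537 and 13507 bp above AT5G39160 and AT5G39170. These series were matched by the spacing and the order of the genes after the regions had been seen, not by sequence. Where AT5G39150 was covered over 86.3%, its counterpart AT5G39180 was covered over 93.8%, and the pseudogenes reached 96.3% and 99.4%. The first gene of each series differed more, at 27.7% in AT5G39130, 57.1% in AT5G39160 and 63.1% in GER2. The second differed most, at 0% in AT5G39140, 91.9% in AT5G39170 and 44.5% in AT5G39200.

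When the 13503 bp from AT5G39130 were laid over the same length from AT5G39160, region bases made up 42.4% of the first series and 51.6% of the second, and 5544 bp fell in both. These are 96.9% of the region bases of the first series and 79.6% of those of the second. Most of this overlap comes from the pseudogenes: of the 5719 region bases in the first series, 4581 belong to the 3 regions on AT5G39155. The regions on the germin-like genes AT5G39130 and AT5G39150 hold 269 and 869 bp. Over the 2501 bp from GER2 to the end of AT5G39200, 971 bp coincided with regions of the second series, or 73.7% of the region bases there and 87.4% of those in the third series. A break between regions fell after 2215 bp of AT5G39155 and after 2187 bp of AT5G39185. The second break in AT5G39155, of 93 bp, had no counterpart in AT5G39185. How reads with several possible positions were placed is not given in the sources used here. Whether reads can be assigned to 1 copy of the series was not tested, and the placement of regions among the copies is uncertain.

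**Figure D4:**
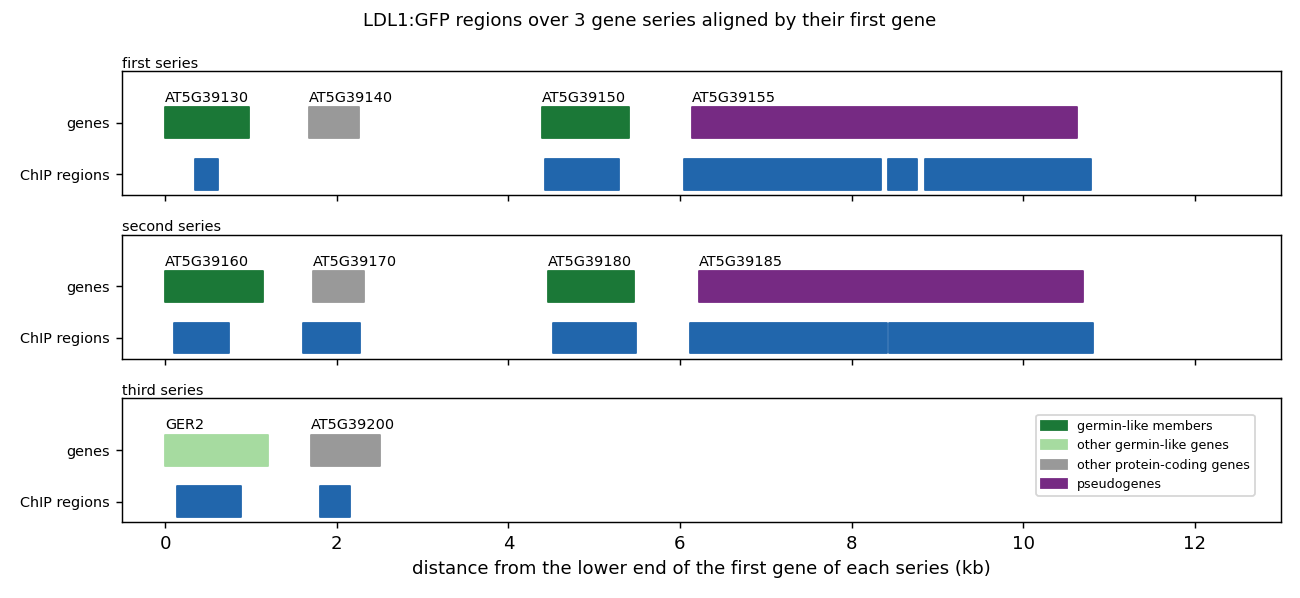
The 3 gene series aligned at the lower end of their first gene (horizontal axis, distance in kb), with genes above and LDL1:GFP regions below in each panel. Regions of the first and second series coincide over 5544 bp, mostly on the pseudogenes AT5G39155 and AT5G39185. AT5G39140 has none, and AT5G39170 and AT5G39200 have 1 each.

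The input also differed along the cluster. Input intervals mark stretches with at least 1 read and give no depth. They covered 99.95% of the members' bases, and 99.2% of all protein-coding bases, so that cover itself hardly distinguished the genes. The only bases of a member without input were 3 bp in AT5G39120. The length of the intervals varied more. A single interval of 21763 bp (15663440 to 15685202) ran from the last part of AT5G39120 past AT5G39180, and after 15 bp a second one of 10030 bp (15685218 to 15695247) went on past the upper end of AT5G39200 (15695042). Over all 118593 nuclear input intervals the median width was 607 bp. The interval of 21763 bp was the 6th widest, and the 5 wider ones all lie at 3 to 4 Mb of chromosome 2.

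Of the members, AT5G39130, AT5G39150, AT5G39160 and AT5G39180 lay whole within an input interval of at least 10 kb, as did 0.634% of protein-coding genes. AT5G39110 lay in an interval of 1554 bp, and AT5G39120 was divided between an interval of 1065 bp and the long one. The 31.8 kb of the pair of long intervals lacked input at 15 bp in all. The same length just below was touched by 32 intervals and lacked 478 bp, and that just above was touched by 55 and lacked 865 bp. The long intervals thus held the members covered over 50% of their body, along with AT5G39130, covered over 27.7%, and AT5G39140, which held no region.

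Most long input intervals elsewhere in the arms held few region bases, but none was as wide as that of 21763 bp (the widest was 13380 bp). Outside the gene-poor bins 29 intervals of at least 10 kb were found. Of the 29, 17 held no region, a smaller share than the 80.5% of windows of 10 kb outside the same bins. In 26 of the 29 regions made up less than 10% of the bases. Such low cover was also usual in the 9711 windows, among which a window with 7.43% ranked 180th from the top. The 3 intervals with more were the long pair at the cluster, with 37.2% and 56.7%, and an interval at the lower end of chromosome 2. That interval (994 to 11065), at the chromosome end that bears ribosomal RNA genes, had 99.99%. Over all chromosomes, 174 protein-coding genes lay whole within such an interval and 195 were covered over at least 50%, and 96 genes were in both lists (55.2% of the former and 49.2% of the latter). Outside the gene-poor bins the overlap was 8 of the 83 genes in long intervals, and 5 of the 8 belong to the cluster stretch. Most of the 96 genes thus lay inside the gene-poor bins. The unbroken input coincided with the heaviest ChIP cover at the germin-like genes. Of the annotated genes lying whole inside the long pair, AT5G39140 held no region and all others held regions. Outside it, AT5G39110 was covered over 26.9% and GLP6 held no region. Input intervals give no depth, so input and regions cannot be compared gene by gene. The part of the unbroken input in the regions was not tested.

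**Figure D5:**
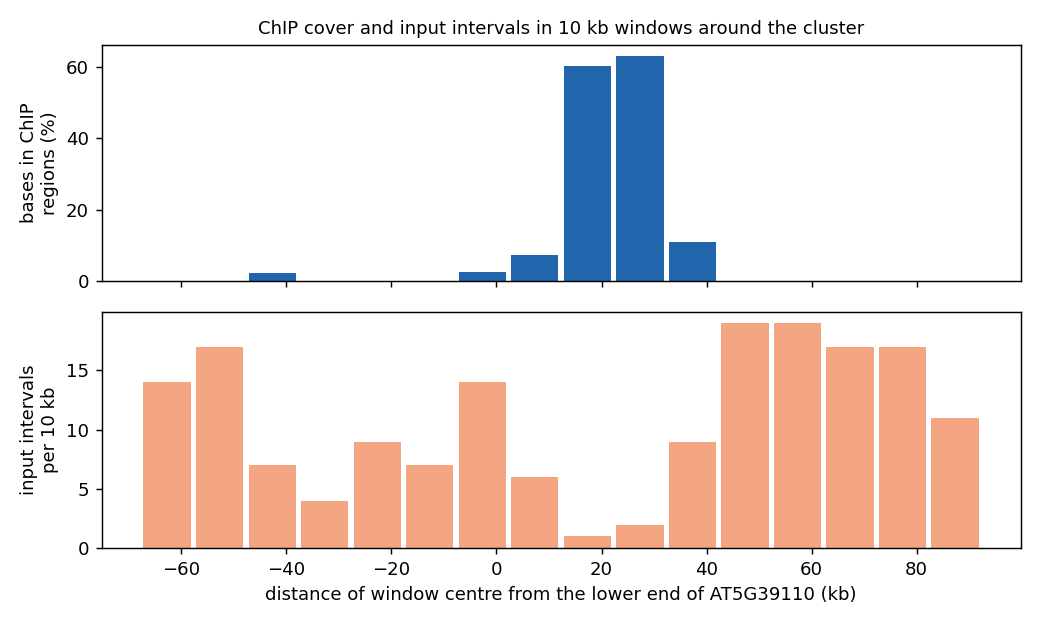
Share of bases under LDL1:GFP regions (upper panel, %) and number of input intervals touching the window (lower panel) in consecutive windows of 10 kb, by distance of the window centre from the lower end of AT5G39110 (kb). The windows with 60.2% and 63.2% ChIP cover are those touched by 1 and 2 input intervals.

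In windows of 10 kb the cover was concentrated in the part from AT5G39150 to AT5G39185. The window from 15670001 to 15680000 had 60.2% of its bases under regions and the next one 63.2%, against 7.43% and 11.1% in the windows on either side. Outside the gene-poor bins 12 of 9711 windows (0.124%) reached 50%, and 80.5% had no region. The other 10 such windows lay within 939.8 kb of a chromosome end, 8 of them on chromosome 2, 1 on chromosome 3 and 1 on chromosome 4. The cluster lies 11.3 Mb from the end of chromosome 5.

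Cover of this extent was rare among genes in the inner arms, defined as outside the gene-poor bins and more than 1 Mb from a chromosome end. Of 22970 such genes, 35 were covered over at least 50%, and 5 of the 35 belong to the stretch: AT5G39150, AT5G39160, AT5G39170, AT5G39180 and GER2. Many of the others are very short. Among the 19917 genes at least as long as the shortest member (936 bp, a limit set after the values were seen), 10 were covered over at least 50% and 4 of these were AT5G39150, AT5G39160, AT5G39180 and GER2. Another of the 10 is LDL1 itself (96.75%), whose sequence the transgene also carries. The rest are RGL1 (81.56%), AT2G16586 (63.35%), AT4G20953 (59.34%), AT1G04800 (52.39%) and ERF4 (50.48%).

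Ranked by body cover, the run AT5G39150 to AT5G39200 (6 consecutive protein-coding genes, 71.7% of body bases under regions) stood first of 71 runs outside the gene-poor bins in which at least 3 neighbouring genes were all overlapped. The next runs, with 61.5% and 48.6%, lie at the very ends of chromosomes 2 and 4, from AT2G01008 and from AT4G00005. The fourth, at 41.8%, ends with the auxin efflux carrier gene PIN4, and the fifth, at 39.8%, begins with PRP3. They lie 0.172 and 0.274 Mb from a chromosome end. The sixth, AT2G23120 to AGP17 at 35.2%, lies 9.84 Mb from an end and the germin-like run 11.3 Mb. The lower members AT5G39110, AT5G39120 and AT5G39130 form a run of their own, ninth with 32.2%, separated from the first by AT5G39140. Both runs of the cluster touched the input interval of 21763 bp, and in the other runs named here the widest was 10072 bp.

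The other germin-like genes were mostly without a region, as were most protein-coding genes. Of 26 other germin-like genes, 11 of which carry a germin name in the gene table, 1 was overlapped by a region, beside 7.68% of all protein-coding genes. That gene was GER2, the next germin-like gene above the members and the first of the third series, covered over 63.1% by a region of 753 bp. Since the members were chosen by their regions, nothing is read from the difference between them and the other germin-like genes. The first annotated gene below the members, GLP6, held no region, and the nearest one was 4021 bp away, on AT5G39110. A second group on the same chromosome arm, AT5G38910, AT5G38930, AT5G38940 and AT5G38960, held none, with the nearest region 2388 to 10596 bp away. GER3 and AT5G26700 on the other arm of chromosome 5 and AT5G61750 farther up held none either. GER1, and the genes GLP5 and GL22, which encode germin-like proteins of plasmodesmata, were 9080, 21422 and 4191 bp from the nearest region. Over the 25 uncovered genes the distance had a median of 10650 bp, and the lowest was 283 bp, at GLP10. Input covered 97.6 to 100% of each of the 25, in intervals no wider than 4837 bp, against 21763 bp at 5 of the 6 members.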

How the data were processed

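Sample titles gave the groups. The members, the family list and the measures were chosen with earlier results of these data known. The submitters' processing notes list Bowtie, SICER and TAIR10 but state neither versions nor roles. The authors deposited region and interval coordinates without a score. Whether replicates were pooled, the threshold for a region and the treatment of reads with several matches are unknown (not given in the sources used here). Coordinates are 1-based on TAIR10. Gene positions came from a RefSeq table for TAIR10.1, whose nuclear sequence is that of TAIR10. Strand, exons and sequence were not used here. Overlap meant at least 1 bp, and cover is bases under regions over gene length. The text names the members, all genes between them, the first gene on either side, the other germin-like genes with a region or on the same arm, and the 6 most covered runs. Other genes were named after their values were seen. No test was made, since there is no list per replicate. Alternatives changed the regions, input intervals, overlap and gene extent. Joining regions across gaps of up to 600 bp closed only gaps inside the pseudogenes AT5G39155 and AT5G39185 here. It therefore could not change the values of members or spaces. Leaving out input intervals of the commonest width (51 bp) could not change the members' input, since their intervals are wider. The overlap routine was tested on simulated data and matched in 200 of 200 stretches. The work used pandas 2.3.3, numpy 2.4.6, matplotlib 3.10.9 and scipy 1.17.1 in Python 3.11.15.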

Additional observations from a re-analysis of the deposited data

How the results depend on the processing

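Of 14 alternatives, 11 left the value within 1.5 times for a count or within its exact binomial 95% interval over bases for a share. Neighbouring bases are not independent, so that interval served only as a yardstick and measures no spread. Several of the 11 could not have moved. These are joining regions, leaving out input intervals of the commonest width, and adding 1 kb on either side of members that were all overlapped already. Leaving out regions under the median width could not change the spaces either, since the regions reaching into them are wider. The limit for counts is loose, since a fall from 6 to 4 members, or from 3 to 2 with a cut of 80% of the body, passed it. All 6 members were overlapped also by at least 200 bp and with 1 kb on either side, 4 were when regions under the median width were left out, and 3 with regions wider than 500 bp, a setting chosen after seeing the data. Without the regions under the median width, 47.7% of the members' bases were covered in place of 56.3%, because the regions on AT5G39110 and AT5G39130 drop out. With 1 kb on either side, 2 of the 26 other germin-like genes held a region, GER2 and GLP10. Exons alone were not run, since exon positions were not used here. No paired analysis was possible because the regions are a single list without replicates. Leaving out a replicate was not possible for the same reason, and the unknown depth limits any comparison of region widths.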
